A study of Mus musculus with 20 samples.

Results

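The 10 genes described here encode signals and enzymes that fibroblasts release: the cytokine Il6, the chemokines Cxcl1, Cxcl5, Ppbp, Ccl2 and Ccl7, the proteases Mmp3, Mmp13 and Plau, and the protease inhibitor Timp1. They were chosen by name, with earlier results of these data known, as secreted cytokines, chemokines and matrix enzymes tied to senescence. All 10 were found in each of the 4 RNA tables, among 22593 genes present in all of them. The cells were mouse embryonic fibroblasts from wild-type (WT) mice and from Pml-null mice (KO), both on the C57BL/6 background. They were used at passage 10 to 15, untreated, and grown while proliferating up to confluency. The 20 samples comprised 12 chromatin immunoprecipitation (ChIP) libraries, with 1 library per target and genotype, and 8 RNA samples. ChIP targets were total H3, H3K9me3, H3K27me3, PML itself, and the histone variant H3.3 carrying a Flag or an HA tag. Cells for H3.3 ChIP had been nucleofected with the tagged histone, whereas RNA came from native cells, so RNA and H3.3 regions describe different cultures. The protocol text also mentions siRNA in some transfections, and the sample labels name none. RNA comprised 3 numbered replicates per genotype, which the authors merged into 1 table per genotype, and 1 unnumbered sample per genotype. The labels do not say how many embryos the cells came from, nor which part of Pml is deleted.

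Senescent cells stop dividing and release a mixture of cytokines, chemokines, proteases and protease inhibitors, known as the senescence-associated secretory phenotype. NF-kB and C/EBP beta are the transcription factors best known for driving its cytokine genes, and AP-1 factors are classical drivers of the matrix metalloprotease genes. PML, the scaffold of PML nuclear bodies, is itself linked to senescence in fibroblasts, and PML bodies are a place where H3.3 and its chaperones gather. The cells described here were labelled as proliferating and untreated, and senescence had not been induced according to the labels.

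Several of the 10 genes lie side by side in gene clusters. On chromosome 5 (GRCm38.p6, the assembly of mm10), Cxcl5 at chr5:90759298-90761625 is followed after 6.89 kb by Ppbp at chr5:90768518-90770063 and, 121 kb further on, by Cxcl1 at chr5:90891245-90893121. Ccl2 at chr11:82035577-82037452 and Ccl7 at chr11:82045712-82047525 are 8.26 kb apart. Mmp13 at chr9:7272514-7283333 and Mmp3 at chr9:7445822-7455975 are 162 kb apart within the metalloprotease cluster. The remaining genes stand alone: Il6 at chr5:30013114-30019975, Plau at chr14:20836662-20843388 and Timp1 at chrX:20870166-20874737. Overlapping annotations bear on the RNA values of Il6 and Timp1, since the strand used in counting is not stated. The Il6 body lies inside the long noncoding RNA A230098N10Rik, and the Timp1 body lies inside Syn1, whose FPKM was 0.995 (WT numbered), 7.46 (KO numbered), 0.0968 (WT unnumbered) and 0.121 (KO unnumbered).

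RefSeq promoter sequence was at hand for 6 of the 10 genes (Il6, Cxcl1, Ppbp, Mmp3, Mmp13 and Timp1). The 250 bases before the start are printed for the 5 of them with a match to a searched motif, because they show which factors' recognition letters sit next to the genes whose RNA and H3.3 cover are given in the paragraphs that follow. Capitals mark matches on either strand to AP-1 (TGANTCA), C/EBP (TTNNGCAA), the TATA box (TATAAA) and the NF-kB consensus, and all 5 sequences read 5′ to 3′ on the plus strand, which is the strand of each gene. They span chr5:30012864-30013113, chr5:90890995-90891244, chr5:90768268-90768517, chr9:7445572-7445821 and chr9:7272264-7272513, in the order printed.
Il6: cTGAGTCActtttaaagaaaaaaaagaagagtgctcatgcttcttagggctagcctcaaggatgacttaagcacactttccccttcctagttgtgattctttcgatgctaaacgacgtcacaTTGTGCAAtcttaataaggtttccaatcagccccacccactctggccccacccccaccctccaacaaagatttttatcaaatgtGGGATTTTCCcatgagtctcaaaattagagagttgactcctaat
Cxcl1: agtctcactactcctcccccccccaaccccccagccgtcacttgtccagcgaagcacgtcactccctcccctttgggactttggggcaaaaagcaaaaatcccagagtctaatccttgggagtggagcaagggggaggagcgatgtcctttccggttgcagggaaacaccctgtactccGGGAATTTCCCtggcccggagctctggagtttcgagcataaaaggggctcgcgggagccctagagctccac
Ppbp: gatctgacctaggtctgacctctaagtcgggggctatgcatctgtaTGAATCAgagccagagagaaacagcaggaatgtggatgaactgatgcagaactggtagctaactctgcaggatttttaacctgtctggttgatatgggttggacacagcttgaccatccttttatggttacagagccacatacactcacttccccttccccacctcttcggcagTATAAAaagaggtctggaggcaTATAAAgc
Mmp3: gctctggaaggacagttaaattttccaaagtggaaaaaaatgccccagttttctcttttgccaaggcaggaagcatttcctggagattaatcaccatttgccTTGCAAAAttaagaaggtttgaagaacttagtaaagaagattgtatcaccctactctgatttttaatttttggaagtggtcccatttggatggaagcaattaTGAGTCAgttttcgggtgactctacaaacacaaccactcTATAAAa
Mmp13: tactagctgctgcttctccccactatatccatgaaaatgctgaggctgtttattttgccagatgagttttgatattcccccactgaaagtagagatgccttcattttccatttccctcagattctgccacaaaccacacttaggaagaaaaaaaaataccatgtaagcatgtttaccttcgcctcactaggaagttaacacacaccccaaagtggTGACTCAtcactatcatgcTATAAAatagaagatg

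In the Il6 promoter, the NF-kB match GGGATTTTCC began 44 bases before the start, the C/EBP match TTGTGCAA 128 bases before it and the AP-1 match TGAGTCA 249 bases before it. In the Cxcl1 promoter, an NF-kB match was read on each strand from the same stretch, GGGAATTTCC and, overlapping it, GGAATTTCCC. Mmp3, Mmp13 and Ppbp each carried an AP-1 match followed by a TATA box. The AP-1 match began 46 bases (TGAGTCA, Mmp3), 35 bases (TGACTCA, Mmp13) and 204 bases (TGAATCA, Ppbp) before the start. Among all 32619 promoters of the same length, 6.78% held an AP-1 match, 3.92% an NF-kB match, 9.62% a C/EBP match and 12.4% a TATA box. Of the 6 promoters, 4 held an AP-1 match (Il6, Ppbp, Mmp3 and Mmp13), 2 an NF-kB match (Il6 and Cxcl1), 2 a C/EBP match (Il6 and Mmp3) and 3 a TATA box (Ppbp, Mmp3 and Mmp13). The Timp1 window held none of the 4 motifs. These are matches of letters, and binding of the factors was not measured.

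The RNA tables give FPKM, a fragment count divided by transcript length and by the total of the library, so levels of different genes can be set beside each other. Each table holds 1 value per gene, so no spread between samples could be computed and no difference was tested. A difference is KO minus WT of log2(FPKM + 1), and 2-fold, a difference of at least 1 on that scale, is used only as a description for genes with an FPKM of at least 1 in either genotype. Pml was listed at 15.0 (WT) and 10.2 (KO) FPKM in the numbered pair and at 7.62 and 4.22 FPKM in the unnumbered pair, lower in KO each time and not absent. When the tables of a pair were scaled to the same summed FPKM, the difference of Pml in log2(FPKM + 1) turned from -0.52 to 0.60 in the numbered pair and was -0.69 in the unnumbered pair. The summed FPKM was 948032 in the numbered WT table against 409078 to 514537 in the other 3, and the numbered WT table stood apart in this. X-linked Xist and Y-linked Ddx3y went opposite ways in the numbered pair, with Xist at 19.5 (WT) and 0.0517 (KO) FPKM and Ddx3y at 0.0384 and 7.67 FPKM. In the unnumbered pair both transcripts were found in both genotypes, with Xist at 5.89 and 8.25 FPKM and Ddx3y at 21.7 and 11.4 FPKM. Genotype and these sex-linked differences cannot be told apart in the numbered pair. Of 9 fibroblast markers, 8 reached an FPKM of 1 in each numbered table and 9 in each unnumbered table; the exception was Thy1, at most 0.14 FPKM in the numbered tables.

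No member differed 2-fold in the same direction in both pairs except Ppbp, the platelet basic protein chemokine, which was higher in KO in both. The numbered Ppbp call rested on low values, 0.0171 (WT) and 1.58 (KO) FPKM, and did not remain at a minimum FPKM of 5. In the numbered pair, Il6 and Timp1 were lower in KO by more than 2-fold, and Cxcl5 and Ppbp were higher. In the unnumbered pair, Cxcl5, Mmp3 and Mmp13 were lower in KO and Ppbp was higher. Of the 7 members that reached an FPKM of 1 in the numbered pair, 2 were 2-fold higher and 2 were 2-fold lower, where 6.5% of all 11055 genes were 2-fold higher and 15.7% 2-fold lower (22.2% in either direction). The 2 higher members, Cxcl5 and Ppbp, passed the minimum only through KO, where they are high, so their count supports nothing, and at a minimum FPKM of 5 it was 0. In the unnumbered pair all 10 members reached it, and 1 was 2-fold higher and 3 were 2-fold lower, where 1.74% of 11687 genes were higher and 3.83% lower (5.57% in either direction). The median difference of the 10 members was -0.24 against 0.01 for all genes in the unnumbered pair. Because the members were chosen with earlier results of these data known, their counts beside these shares are a description only. Across all genes, 0.253% of 10671 were 2-fold higher in both pairs, as Ppbp was, and 0.797% were 2-fold lower in both, as no member was.

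**Figure D1:**
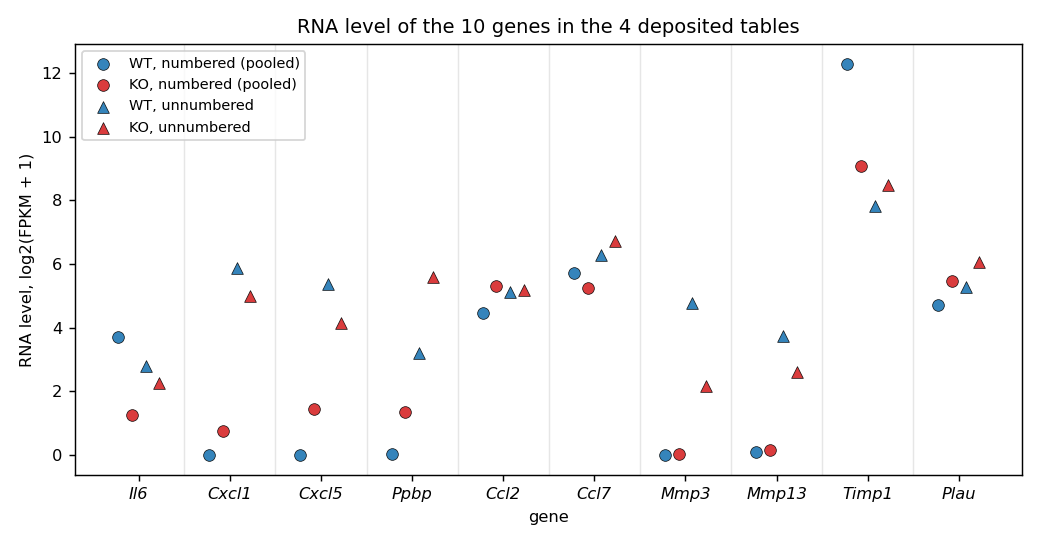
RNA level on the log2(FPKM + 1) scale (vertical axis) of the 10 genes in the 4 tables; blue marks are WT, red marks KO, circles the numbered tables pooled by the authors and triangles the unnumbered samples, with 1 value per mark and no error bar. Timp1 stands highest in all 4 tables, and the blue circles of Cxcl1, Cxcl5, Ppbp, Mmp3 and Mmp13 lie at or near 0 while their triangles do not.

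Il6, the best-known cytokine of the senescence secretome, was listed at 12.2 (WT) and 1.40 (KO) FPKM in the numbered pair and at 5.97 (WT) and 3.78 (KO) FPKM in the unnumbered pair. It was lower in KO in both pairs. The difference in log2(FPKM + 1) was -2.45 in the numbered pair, an FPKM 8.67 times as high in WT, and -0.55 in the unnumbered pair, where it stayed under 2-fold. The WT values of the 2 culture sets themselves differed by -0.92 on that scale (unnumbered minus numbered), and the KO values by 0.99 in the opposite direction.

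The CXC chemokines, ligands of the receptor Cxcr2 that draw neutrophils, were near 0 in the numbered tables and abundant in the unnumbered ones. Cxcl1 was listed at 0 (WT) and 0.696 (KO) FPKM in the numbered pair and at 58.1 (WT) and 31.0 (KO) FPKM in the unnumbered pair. It was under the minimum FPKM in the numbered pair, and its unnumbered difference in log2(FPKM + 1) was -0.89, short of 2-fold. Cxcl5 was listed at 0.0141 (WT) and 1.75 (KO) FPKM in the numbered pair and at 40.3 (WT) and 16.6 (KO) FPKM in the unnumbered pair. Its differences in log2(FPKM + 1) therefore pointed opposite ways, 1.44 in the numbered and -1.23 in the unnumbered pair. Ppbp was listed at 0.0171 (WT) and 1.58 (KO) FPKM in the numbered pair and at 8.15 (WT) and 47.7 (KO) FPKM in the unnumbered pair. KO was higher in both, by 1.34 and 2.41 in log2(FPKM + 1), and in the unnumbered pair the FPKM in KO was 5.86 times that in WT. Ppbp and Cxcl5, whose bodies are 6.89 kb apart, thus differed in opposite directions in the unnumbered pair and in the same direction in the numbered pair, at low levels.

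Ppbp is known above all as a platelet and megakaryocyte product, so the markers of that lineage were read beside it. Their summed FPKM (Pf4, Itga2b, Gp1ba and Gp9) was 1.42 (WT numbered), 0.957 (KO numbered), 7.08 (WT unnumbered) and 1.36 (KO unnumbered). Pf4, another platelet chemokine whose body lies 2.37 kb from Ppbp, was listed at 5.60 (WT) and 0.310 (KO) FPKM in the unnumbered pair and at 0 in both numbered tables, and it carried the unnumbered difference of the sum. Itga2b (0.943 and 0.673 FPKM) and Gp1ba (0.537 and 0.372 FPKM) were under an FPKM of 1 there. The macrophage markers, summing to 195 (WT) and 13.3 (KO) FPKM, moved with Pf4 in that pair, and their part in its difference was not tested. Gp9, a subunit of the platelet receptor for von Willebrand factor, was listed at 0 in all 4 tables.

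The CC chemokines Ccl2 and Ccl7, ligands of Ccr2 that draw monocytes, were present in all 4 tables and did not reach 2-fold in either pair. Ccl2 was listed at 21.3 (WT) and 39.0 (KO) FPKM in the numbered pair and at 33.9 (WT) and 35.5 (KO) FPKM in the unnumbered pair, differences of 0.84 and 0.06 in log2(FPKM + 1). Ccl7 was listed at 51.5 (WT) and 37.2 (KO) FPKM in the numbered pair and at 76.9 (WT) and 104 (KO) FPKM in the unnumbered pair, differences of -0.46 and 0.44. Ccl2 was thus higher in KO in both pairs, by little in the unnumbered pair, and Ccl7 changed sign between them.

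Of the proteases, the stromelysin Mmp3 and the collagenase Mmp13 reached an FPKM of 1 in the unnumbered tables only, whereas the plasminogen activator Plau was found in all 4. Mmp3 was listed at 0 (WT) and 0.0282 (KO) FPKM in the numbered pair and at 26.3 (WT) and 3.55 (KO) FPKM in the unnumbered pair. Mmp13 was listed at 0.0687 (WT) and 0.118 (KO) FPKM in the numbered pair and at 12.2 (WT) and 5.12 (KO) FPKM in the unnumbered pair. Both enzymes were lower in KO in the unnumbered pair. The difference in log2(FPKM + 1) was -2.58 for Mmp3, an FPKM 7.40 times as high in WT, and -1.11 for Mmp13, 2.39 times as high in WT. Plau, which turns plasminogen into plasmin, was listed at 25.5 (WT) and 43.5 (KO) FPKM in the numbered pair and at 38.1 (WT) and 65.4 (KO) FPKM in the unnumbered pair. It was higher in KO by nearly the same amount in both, 0.75 and 0.76 in log2(FPKM + 1), or 1.71 and 1.72 times in FPKM, short of 2-fold each time.

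Timp1, the tissue inhibitor of metalloproteases, was the most abundant member in every table. It was listed at 5017 (WT) and 544 (KO) FPKM in the numbered pair and at 225 (WT) and 355 (KO) FPKM in the unnumbered pair. The numbered WT value stood far above the other 3: Timp1 ranked 29 from the top in that table and made up 0.529% of its summed FPKM, against ranks of 118, 301 and 201 in KO numbered, WT unnumbered and KO unnumbered. The difference in log2(FPKM + 1) was -3.20 in the numbered pair, an FPKM 9.22 times as high in WT, and 0.66 in the unnumbered pair, so the direction was opposite. Timp1 is X-linked. In the numbered pair Xist was lower in KO, as Timp1 was, and Ddx3y was higher; their part in the result was not tested.

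**Figure D2:**
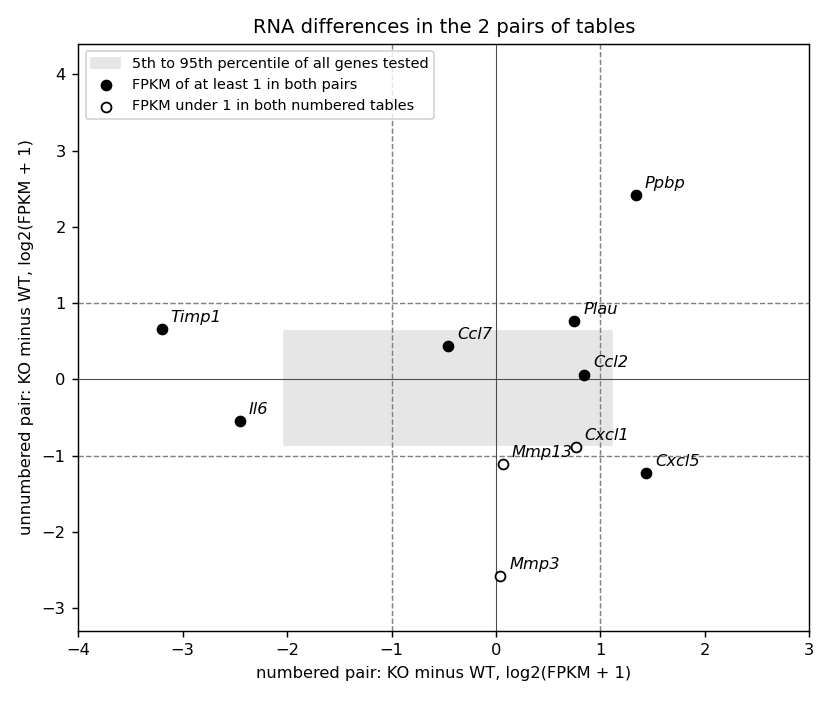
KO minus WT of log2(FPKM + 1) in the numbered pair (horizontal axis) against the unnumbered pair (vertical axis), 1 point per gene; dashed lines mark 2-fold, the grey box spans the 5th to 95th percentile of all genes tested (-2.03 to 1.11 and -0.86 to 0.64), and open circles had an FPKM under 1 in both numbered tables. Ppbp lies alone at the upper right, Timp1 and Il6 at the left, and Mmp3, Mmp13 and Cxcl5 under the lower dashed line.

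The 2 culture sets differed widely for 6 of the members. In WT, the unnumbered minus the numbered value was 5.89 (Cxcl1), 5.35 (Cxcl5), 4.77 (Mmp3), 3.63 (Mmp13) and 3.17 (Ppbp) in log2(FPKM + 1), and -4.47 for Timp1. The other 4 members, Il6, Ccl2, Ccl7 and Plau, were within 2-fold in WT, between -0.92 and 0.65. In KO, the same 5 genes were higher in the unnumbered table by 2.15 (Mmp3) to 4.24 (Cxcl1 and Ppbp), Ccl7 was higher by 1.46, and Timp1 differed by -0.62. Across all genes, 20.5% were 2-fold higher and 16% 2-fold lower in the unnumbered than in the numbered WT table. In KO the shares were 18.4% and 10.5%. In WT, Cxcl1, Cxcl5, Ppbp, Mmp3 and Mmp13 reached an FPKM of 1 only in the unnumbered table, where they are high. The same held for Cxcl1, Mmp3 and Mmp13 in KO. Setting these genes beside the shares therefore supports nothing. What separates the culture sets is not given in the labels.

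How the numbered tables are scaled decides some of the smaller differences. When both numbered tables were scaled to the same summed FPKM, the median difference of all genes shifted by 1.04, from 0.06 to 1.10, and 55.4% of genes were 2-fold higher in KO and 5.09% lower, against 6.5% and 15.7% as deposited. On that scale Ccl2 and Plau joined Cxcl5 and Ppbp as 2-fold higher, Ccl7 turned from -0.46 to 0.73, and Il6 and Timp1 remained 2-fold lower. Against the scaled median of 1.10, Ccl2 (2.01) and Plau (1.93) lay above it and Ccl7 below it. Short genes were also shifted in the numbered pair as deposited: the median difference of 394 genes with a body under 2.5 kb was -0.92, against -0.11 for 444 such genes in the unnumbered pair. Cxcl1, Cxcl5, Ppbp, Ccl2 and Ccl7 all have such short bodies, of 1.55 to 2.33 kb. As deposited, Ccl2 was higher in KO, opposite to that shift, and Ccl7 (-0.46) was lower, as the shift was. Cxcl5 and Ppbp passed the minimum only through KO and Cxcl1 did not reach it, so these 3 are not read against the shift. In the unnumbered pair the same scaling moved the median by 0.04 and left every member on its side of 2-fold.

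Genes around these secreted factors were read from lists of known pathway members. With equal summed FPKM, the numbered medians of the lists were 1.16 (NF-kB pathway), 1.89 (AP-1), 1.04 (receptors and partners), 0.50 (plasminogen system), 0.46 (other metalloproteases and inhibitors), 1.16 (other secretory genes) and 1.62 (cell cycle), against 1.10 for all genes. Where a named gene's numbered direction turns on that scale, its scaled value is given with it. Counts of the lists are read beside the shares of all genes. As deposited, 6.5% were 2-fold higher and 15.7% lower in the numbered pair, and 1.74% and 3.83% in the unnumbered pair. With equal summed FPKM, 55.4% were higher and 5.09% lower in the numbered pair. Of 22 expressed NF-kB pathway genes, 3 were 2-fold higher and 2 were 2-fold lower in KO in the numbered pair (median 0.11), and 0 were higher and 1 was lower in the unnumbered pair (median -0.03). With equal summed FPKM the numbered counts were 12 higher and 1 lower. Cebpd, a C/EBP factor of acute inflammation, was listed at 27.7 (WT) and 5.47 (KO) FPKM in the numbered pair and differed by -0.33 in log2(FPKM + 1) in the unnumbered pair. Its relative Cebpb, a known activator of Il6, differed by -0.31 (scaled 0.86) and -0.96. Tnfaip3, an inhibitor that NF-kB itself induces, was higher in KO in both pairs, by 1.24 and 0.42. The receptor Tlr2 was also higher in both, by 1.60 and 0.34. Tlr2 passed the numbered minimum only through KO (0.104 FPKM in WT and 2.34 in KO), so its part in the numbered count supports nothing. Il1r1, the receptor for interleukin 1, was lower in both as deposited, at -0.71 (scaled 0.22) and -1.09. Nfkbib, an inhibitor that holds NF-kB in the cytoplasm, differed by -1.56 and -0.08, and Ikbkg, the regulatory subunit of the IkB kinase, by -0.91 (scaled 0.17) and 0.63.

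The AP-1 list held the Fos, Jun and Atf3 genes and also Egr1, a zinc finger factor that is not an AP-1 protein. Of 8 genes expressed in the unnumbered pair 5 were 2-fold lower and 0 were higher (median -1.90), and without Egr1, an alternative added after the data were seen, 4 of 7 were lower (median -1.75). Of 9 in the numbered pair 2 were lower and 3 were higher (median 0.70). With equal summed FPKM 0 were lower and 7 were higher, where 55.4% of all genes were higher. Fos was listed at 18.5 (WT) and 8.29 (KO) FPKM in the numbered pair and at 440 (WT) and 47.1 (KO) FPKM in the unnumbered pair. Fosb was listed at 7.24 and 1.88 FPKM, then at 103 and 11.9 FPKM. These immediate-early genes were lower in KO in both pairs as deposited (Fos -1.07 and -3.20, Fosb -1.52 and -3.02 in log2(FPKM + 1)), though with equal summed FPKM the numbered differences were 0.05 (Fos) and -0.59 (Fosb), neither of them 2-fold. They were also far higher in the unnumbered WT table than in the other WT table, as were Cxcl1, Cxcl5, Ppbp, Mmp3 and Mmp13. Of all genes, 20.5% were 2-fold higher there. Those members reached an FPKM of 1 in WT only in the unnumbered table, so setting them beside this share supports nothing. Atf3, a stress-induced member, changed sign between pairs (1.17 and -2.05 in log2(FPKM + 1)). It passed the numbered minimum only through KO (0.862 FPKM in WT and 3.20 in KO), so its numbered call supports nothing. Fosl1 differed by 1.33 in the numbered pair and was under an FPKM of 1 in the other. Fosl2 differed by 0.73 and 0.63, and Jund by 0.12 and -0.79.

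Receptors and binding partners of the 10 proteins held 8 expressed genes in each pair. In the numbered pair 0 of them were 2-fold apart as deposited (median -0.07). With equal summed FPKM 5 were 2-fold higher, where 55.4% of all genes were. In the unnumbered pair 1 was higher and 1 was lower (median 0.04). Plaur, the surface receptor that holds the Plau enzyme, was listed at 36.8 (WT) and 46.2 (KO) FPKM in the numbered pair and at 11.0 (WT) and 47.0 (KO) FPKM in the unnumbered pair, with nearly equal KO values and unequal WT values. Socs3, an inhibitor induced by Il6 signalling, differed by -0.66 (scaled 0.45) and -1.33 in log2(FPKM + 1), the direction of Il6 in both pairs as deposited and, when scaled, in the unnumbered pair only. Il6st, the signalling subunit of the Il6 receptor, differed by -0.19 (scaled 1.00) and -0.28. Cd63, a surface partner of Timp1, differed by -0.36 (scaled 0.85) and -0.04, and Itgb1, an integrin subunit, by 0.84 and 0.78.

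The rest of the plasminogen system varied between pairs. Of 8 expressed genes in the numbered pair 1 was 2-fold higher and 3 were lower (median -0.64), and of 7 in the unnumbered pair 2 were higher and 0 were lower (median 0.06). With equal summed FPKM the numbered counts were 2 higher and 1 lower. S100a10, a plasminogen receptor subunit, differed by -2.58 and 0.06 in log2(FPKM + 1), Plat, the other plasminogen activator, by 1.26 and -0.10, Serpine2, a protease inhibitor, by -0.86 (scaled 0.26) and -0.24, and Serpinb2 by 0.32 in the numbered pair, being under an FPKM of 1 in the other.

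Other metalloproteases and their inhibitors had a negative median difference in both pairs as deposited. In the numbered pair 3 of 10 expressed genes were 2-fold lower and 0 were higher (median -0.65), and in the unnumbered pair 0 of 11 passed 2-fold (median -0.38). The numbered counts were 2 higher and 1 lower with equal summed FPKM. Timp3, an inhibitor bound to the matrix, was listed at 540 (WT) and 127 (KO) FPKM in the numbered pair and at 241 (WT) and 145 (KO) FPKM in the unnumbered pair, lower in KO in both, unlike Timp1; its numbered difference went from -2.08 to -0.87 when scaled, short of 2-fold. Timp2 differed by -0.79 (scaled 0.42) and 0.16 in log2(FPKM + 1). Reck, a membrane-anchored inhibitor, differed by -0.42 (scaled 0.49) and -0.90, and Mmp23 by -3.16 and -0.84. Mmp15 and Mmp16, which are anchored in the membrane, differed by 0.87 and 0.07 and by 0.21 and 0.54. Mmp15 passed the numbered minimum only through KO (0.897 FPKM in WT and 2.46 in KO).

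Among other genes of the senescence secretome, nearly equal numbers were higher and lower in KO as deposited, and in the numbered pair with equal summed FPKM 14 were 2-fold higher and 5 lower. Of 25 expressed genes in the numbered pair, 9 were 2-fold higher and 9 were lower (median 0.13). In the unnumbered pair 6 of 29 were higher and 8 were lower (median -0.13). Several counted genes passed the minimum only through the genotype where they are high. Among them were Il11, Cxcl10, Gdf15 and Igfbp3 in the numbered pair and Il11, Cxcl10 and Cxcl2 in the unnumbered pair. These counts therefore support nothing. Il11, a cytokine of the Il6 family, Inhba, which forms activin A, and Ptgs2, the inducible prostaglandin synthase, were 2-fold higher in KO in both pairs. Il11 differed by 2.70 and 1.17, Inhba by 1.45 and 2.14, and Ptgs2 by 1.43 and 1.05 in log2(FPKM + 1). In WT, Il11 was at 0.515 (numbered) and 0.683 (unnumbered) FPKM. It passed the minimum only through KO in both pairs, so its calls support nothing. The insulin-like growth factor binding proteins Igfbp3 (-2.03 and -1.12) and Igfbp6 (-2.30 and -1.61) were 2-fold lower in both. Igfbp3 passed the numbered minimum only through WT (5.91 FPKM, against 0.693 in KO). Igfbp3 (-1.28 and -1.08) and Igfbp6 (-1.11 and -1.57) remained 2-fold lower in both pairs when scaled to equal summed FPKM. That scaling moves KO minus WT upward in both pairs, so Il11, Inhba and Ptgs2 could only stay 2-fold higher. Other genes did not keep their direction: the interferon-induced chemokine Cxcl10 differed by 4.65 and -1.63, Gdf15 by -3.11 and 0.50, Tnfrsf11b by -2.53 and 2.00 (osteoprotegerin, a decoy receptor), and Angptl4 by 0.57 and -2.75. Cxcl12, a constitutive stromal chemokine, was listed at 1201 (WT) and 86.3 (KO) FPKM in the numbered pair and at 381 (WT) and 261 (KO) FPKM in the unnumbered pair.

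Of 15 cell cycle arrest and senescence state genes in the numbered pair, 2 were 2-fold higher and 0 were lower as deposited (median 0.44). Of all genes, 6.5% were higher and 15.7% lower. In the unnumbered pair 0 of 15 passed 2-fold (median -0.29), against 5.57% of all genes. With equal summed FPKM, 13 of the 15 numbered differences were 2-fold higher, against 55.4% of all genes, and 0 of the 15 unnumbered ones. The cell cycle inhibitor Cdkn2b was higher in KO in both pairs (0.87 and 0.70 in log2(FPKM + 1)), and Cdkn2c changed sign (1.02 and -0.29). Cdkn1b differed by 0.16 and -0.57, Rb1 by 0.44 and 0.61, Mdm2 by -0.20 (scaled 0.96) and 0.41, and the chromatin protein Hmgb2 by 1.08 and -0.73. Mki67, which marks dividing cells, was listed at 31.4 (WT) and 24.5 (KO) FPKM in the numbered pair and at 13.6 (WT) and 10.1 (KO) FPKM in the unnumbered pair, and its numbered difference turned from -0.35 to 0.83 when scaled.

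**Figure D3:**
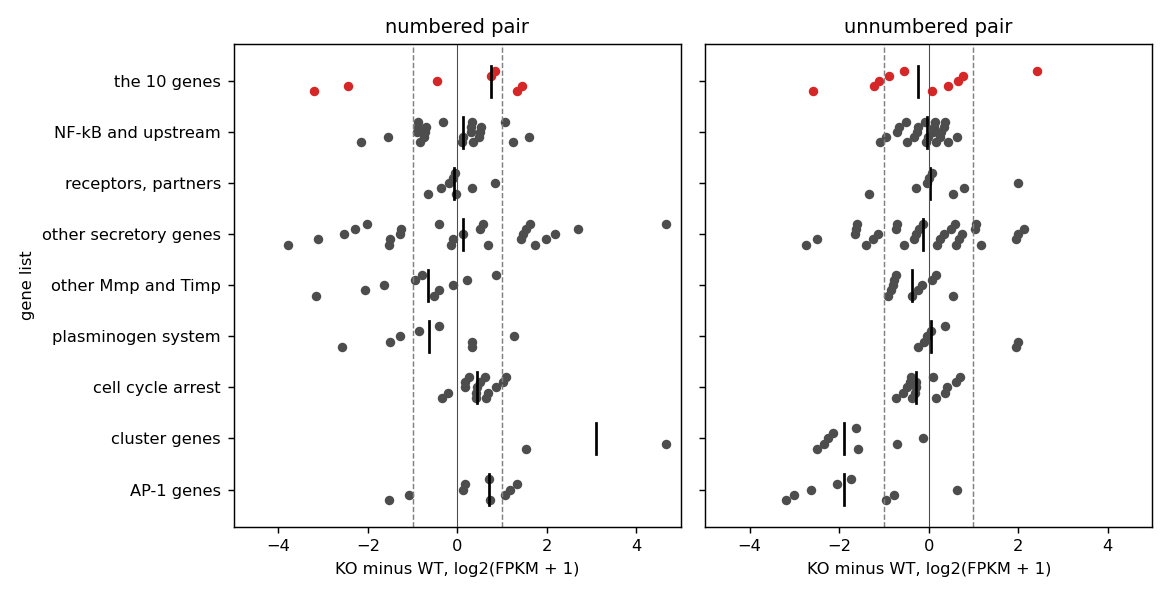
KO minus WT of log2(FPKM + 1) of every expressed gene of each list (horizontal axis) in the numbered pair (left) and the unnumbered pair (right); the 10 genes are red, black bars are list medians and dashed lines mark 2-fold. In the unnumbered pair the AP-1 list (median -1.90, Egr1 included) and the genes of the chemokine and metalloprotease clusters (median -1.88) lie to the left of the other lists. All expressed cluster genes but Cxcl3 passed the minimum there only through WT, so the place of that list supports nothing.

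Macrophage markers moved with genotype in the unnumbered pair. The summed FPKM of 14 macrophage genes was 2.94 (WT numbered), 3.98 (KO numbered), 195 (WT unnumbered) and 13.3 (KO unnumbered). All 14 were lower in KO in the unnumbered pair, and of the 13 that reached an FPKM of 1 there, 12 were 2-fold lower, against 3.83% of all genes. In KO only 2 reached an FPKM of 1, so most passed the minimum only through WT and the count supports nothing. Tyrobp, an adaptor of myeloid receptors, was listed at 18.1 FPKM in WT and at 0 in KO. Of the 14, 8 in the numbered WT table and 6 in the numbered KO table were listed at 0, and 1 in each table reached an FPKM of 1. The unnumbered differences of Il6, Cxcl1, Cxcl5, Mmp3 and Mmp13 went in the same direction as these markers, and the part of the markers in them was not tested; fewer cells of a type and less RNA per cell cannot be told apart in bulk RNA. Ccl2, Ccl7, Plau, Timp1 and Ppbp did not share that direction in the unnumbered pair. Neutrophil and mast cell genes summed to at most 0.131 FPKM, epithelial genes to at most 0.655 FPKM and endothelial genes to at most 2.77 FPKM in any table. Of 5 muscle genes, Des, an intermediate filament gene, was listed at 2.70 (WT numbered), 57.1 (KO numbered), 21.7 (WT unnumbered) and 5.07 (KO unnumbered) FPKM and made up most of the sum in the first 3. Myh11 made up most of it in the KO unnumbered table, at 10.8 FPKM, while Myod1, Myog and Ckm were at most 0.0842 FPKM in any table.

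Genes with the nearest pattern over the 4 tables were found by the distance between profiles of log2(FPKM + 1), each centred on its mean, among 12070 genes. Rad54l2 was nearest to Ccl2 (distance 0.0202), Pkia to Plau (0.0505), Tmem181a to Ccl7 (0.0684), Wnt16 to Mmp13 (0.135) and Ccdc28b to Il6 (0.146). Mrps12 was nearest to Timp1 (0.252), Lrrn3 to Mmp3 (0.289), Snora74a to Cxcl5 (0.350) and Hist1h2bf to Cxcl1 (0.442). Ppbp had the least like neighbour of the 10, 2610018G03Rik at a distance of 1.20.

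Chromatin at the 10 genes was read from the authors' called regions, as the percent of the gene body (the RefSeq start to end) inside a region. Read depth is unknown for every library, and the libraries differ in what was called. H3.3-Flag held 28213 regions in WT and 20641 in KO, and H3.3-HA held 6730 in WT covering 73.5 Mb and 1759 in KO covering 390 Mb. A body is called covered at 50% or more, and cover is called different where it changed by 50 percentage points or more. With 1 library per target and genotype, none of these differences has a replicate.

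H3.3-Flag, which marks chromatin where newly supplied H3.3 was placed, covered 8 of the 10 bodies in WT and 7 in KO. Of all 20878 genes, 22.1% were covered in WT and 23.4% in KO, and among genes expressed in the unnumbered pair 35.3% and 37.2%. These shares, and those given for the other targets, were not matched on body length. The 10 bodies were 1.55 to 10.8 kb long, and Ccl2 and Ccl7 lay in a single region. The counts are therefore not read as a trait of these genes. Il6, Cxcl1, Cxcl5, Ccl2, Ccl7, Timp1 and Plau were covered over 100% of their bodies in both genotypes. Mmp13 was covered over 50.7% in WT and 0% in KO, and Ppbp and Mmp3 were at 0% in both. Mmp13 was thus the single member whose cover differed by 50 points, where 2.58% of all genes were lower in KO by that much and 2.92% higher. Its WT cover lies just inside the limit, and with 5 kb added on each side of the body the WT value was 43.2% and no member differed by 50 points.

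**Figure D4:**
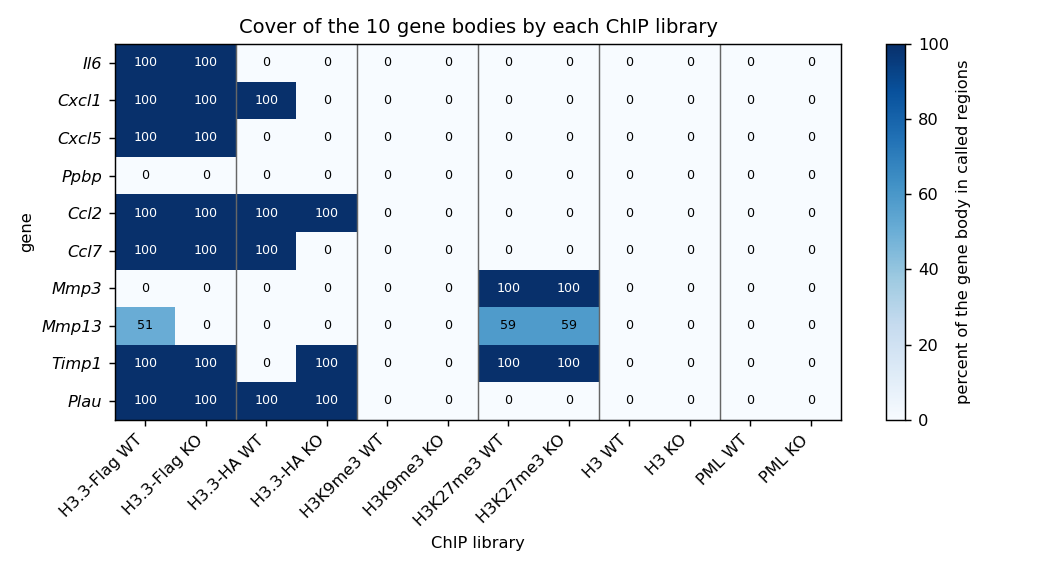
Percent of each gene body inside called regions (colour and number in each cell) for the 10 genes (rows) and the 12 ChIP libraries (columns). The H3.3-Flag columns are dark for 7 genes in both genotypes, Mmp13 is covered in WT and at 0 in KO, and the H3K9me3, H3 and PML columns are at 0 throughout.

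The regions over the members were wide, and several shared an outer limit between genotypes. The region over Il6 was the same 38 kb in WT and KO, chr5:29997001-30035000, with the authors' signal at 67.7 in WT and 37.8 in KO. These signals lay above those of 90.4% and 93.9% of the regions of their own libraries, and the library medians were 36.0 in WT and 15.9 in KO, so each signal is read against its own library. Ccl2 and Ccl7 shared a single region in each genotype, 60 kb in WT (chr11:81993001-82053000) and 56 kb in KO (chr11:81995001-82051000). In WT this region ranked 885 of 28213 by signal (88.3). The signal on chromosomes 11 and 14 is built differently from that on 5, 9 and X, where it was always a whole number per region once multiplied by the 1 kb bins, so ranks across chromosomes need not mean the same.

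At the chromosome 5 chemokine cluster, the Cxcl1 region was 34 kb in WT (chr5:90875001-90909000) and 24 kb in KO (chr5:90875001-90899000), with the same left limit. The stretch missing in KO held Cxcl2, whose body was covered over 100% in WT and 0% in KO. The Cxcl5 region was 20 kb in WT and 18 kb in KO, but in KO it reached further to the right and ended 0.518 kb before Ppbp, against 3.52 kb in WT. Ppbp, higher in KO RNA in both pairs, therefore lay outside H3.3-Flag regions in both genotypes and nearer to one in KO. The window of 2 kb on each side of the Ppbp start was covered over 0% in WT and 37.1% in KO. Over Mmp13, a 9 kb region in WT (chr9:7269001-7278000, signal 26.4) held the gene's start and the printed promoter, and the nearest KO region ended 8.51 kb before the start. Timp1 lay in a 33 kb region in WT and a 21 kb region in KO, and Plau in a 20 kb region in WT and a 99 kb region in KO that share their right limit.

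**Figure D5:**
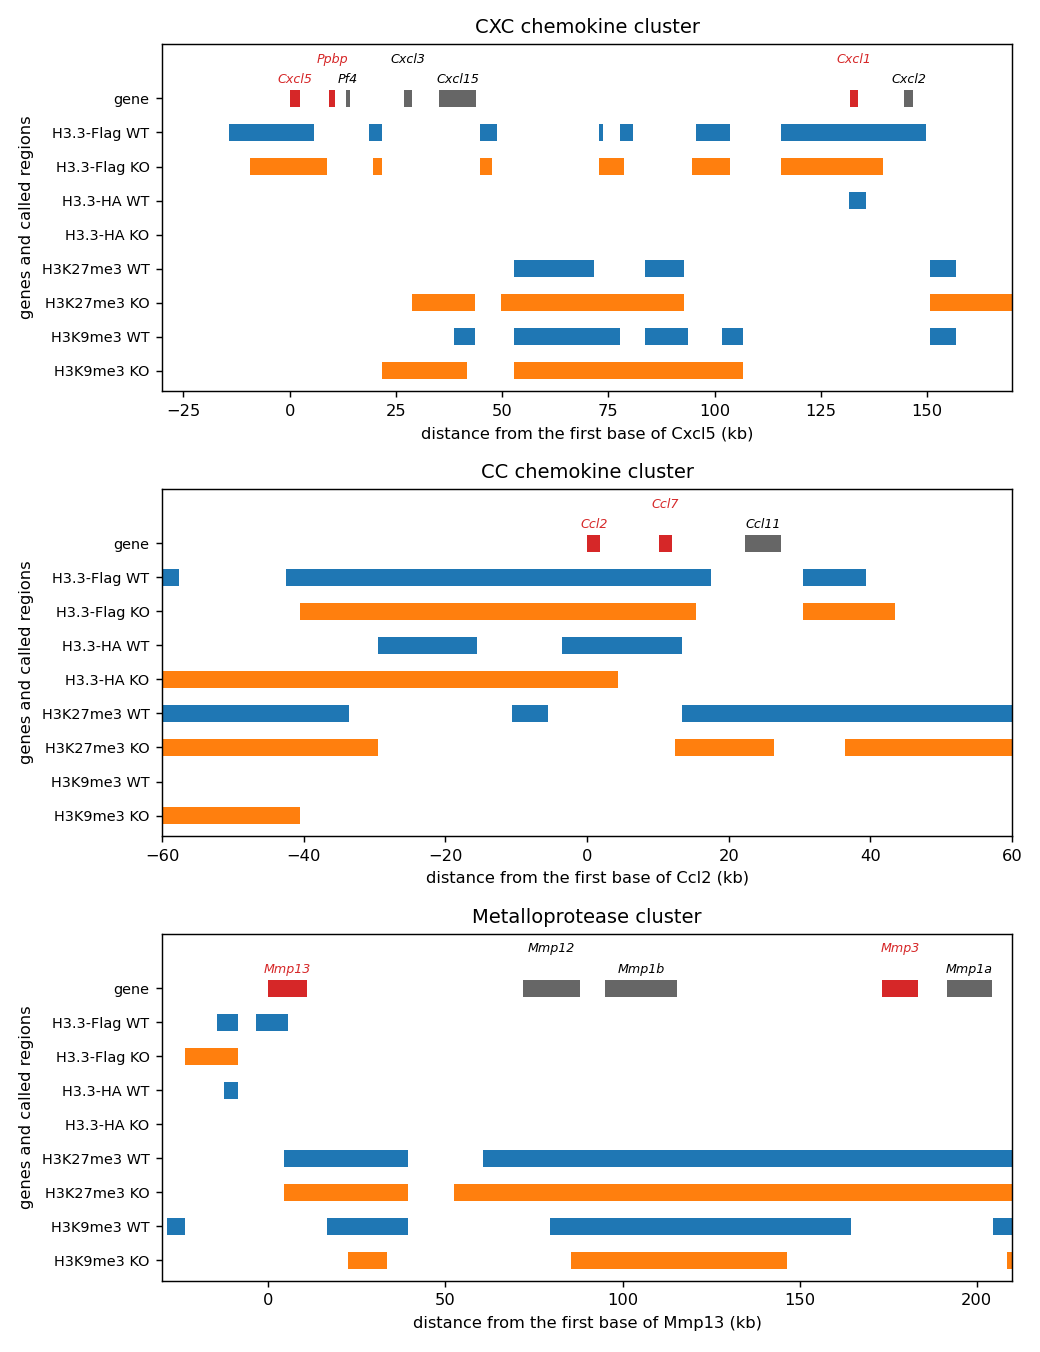
Genes (red, the members; grey, other genes of the clusters) and called regions of 4 targets in WT (blue) and KO (orange) around 3 clusters, with the distance in kb from the first base of Cxcl5, Ccl2 or Mmp13 on the horizontal axis. The H3.3-Flag regions over Cxcl5, Cxcl1 and the Ccl2 and Ccl7 pair appear in both genotypes, the region over the Mmp13 start appears in WT only, and H3K27me3 spans Mmp3 in both.

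H3.3-HA covered fewer members, 4 in WT (Cxcl1, Ccl2, Ccl7 and Plau) and 3 in KO (Ccl2, Timp1 and Plau). Of all genes 9.02% were covered in WT and 27.5% in KO, and of expressed genes 14.2% and 33%. Cxcl1 and Ccl7 were covered over 100% in WT and 0% in KO, a difference that 3.05% of all genes showed in that direction. Timp1 was at 0% in WT and 100% in KO, a difference shown by 21.3% of genes, and its nearest WT region ended 0.166 kb before its start. The KO regions were of another kind: that over Ccl2 was 1262 kb long with a signal of 0.780, that over Plau 187 kb long with 3.71, and that over Timp1 24 kb long with 1.54. With a signal of at least 3 required, 1 KO member was left, Plau. The covered WT genes with HA (Cxcl1, Ccl2, Ccl7 and Plau) were all among the 8 covered with Flag in WT. Mmp13 was at 0% with HA in both genotypes. The WT library held 6730 regions with HA and 28213 with Flag, so the HA values cannot decide on the Flag difference at Mmp13.

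H3K27me3, the mark of Polycomb repression, covered the same 3 members in both genotypes: Mmp3 and Timp1 over 100% of the body and Mmp13 over 58.5%. Of all genes 34.1% were covered in WT and 31.8% in KO, and among genes expressed in the unnumbered pair 12.5% and 10.1%. The cover of 0 members differed by 50 points, where 4.15% of all genes were higher in KO by that much and 5.9% lower. The Mmp13 region was identical in WT and KO, chr9:7277001-7312000, and left the start of the gene outside, with 0% of the window of 2 kb on each side of the start covered. In WT the H3.3-Flag region over the Mmp13 start and this H3K27me3 region overlapped by 1 kb. Mmp3 lay in a region of 162 kb in WT (signal 2.36) and 435 kb in KO (signal 4.89), and without WT regions of a signal under 3 it was not covered in WT. Timp1, the most abundant member in RNA, lay in regions of 583 kb (WT) and 3436 kb (KO) on the X chromosome, together with H3.3-Flag cover in both genotypes. Regions of that width take in many genes, and the allele that carried either mark was not measured.

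H3K9me3, the mark of constitutive heterochromatin, touched 0 of the 10 bodies in either genotype, against 17.4% of all genes covered in WT and 24.8% in KO, and 5.86% and 14.9% of expressed genes. The nearest H3K9me3 region lay 5.67 kb from a member in WT (Mmp13) and 1.03 kb in KO (Il6, region chr5:30021001-30059000). In WT the region nearest to Il6 began 24.0 kb away. The H3 library covered 0 members, against 23.5% of genes in WT and 35.7% in KO, and 21.8% and 39.2% of expressed genes. The PML library covered 0 members in either genotype, against 10.7% of genes in WT and 0.441% in KO, and among expressed genes 0.866% and 0.0553%. Cover thus differed at 0 members for H3K9me3, H3 and PML, where 13.6%, 15.7% and 0% of all genes were higher in KO by 50 points and 6.63%, 3.55% and 10.2% lower. The nearest WT PML region lay 186 kb from Ccl2, 704 kb from Mmp3, 763 kb from Il6 and 2985 kb from Timp1, with a median of 1152 kb over the 10 genes.

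RNA and H3.3-Flag cover of the 10 genes can be set side by side. Mmp13, lower in KO RNA in the unnumbered pair, was the member whose H3.3-Flag cover was lower in KO. Mmp3, whose RNA was lower still (-2.58 in log2(FPKM + 1)), lay outside H3.3-Flag regions and inside H3K27me3 in both genotypes. Il6, Cxcl5 and Timp1 were fully covered by H3.3-Flag in both genotypes while their RNA differed by 2-fold in at least 1 pair. Ppbp differed by 2-fold in both pairs with 0% cover by any target in either genotype. ChIP and RNA cultures were not paired by the labels, so no relation between the 2 measures was tested.

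Within 250 kb of the members lie 15 other chemokine and metalloprotease genes of the list that the tables hold. In the numbered pair 0 of them reached an FPKM of 1, and in the unnumbered pair 5 did (Ccl11, Ccl12, Pf4, Cxcl3 and Cxcl2). Of these 5, 3 were 2-fold lower in KO and 0 were higher, where 3.83% of all genes were 2-fold lower; all 3 passed the minimum only through WT, so the count supports nothing. They moved with the macrophage markers (195 and 13.3 FPKM in sum), whose part was not tested. Ccl12 was listed at 3.74 (WT) and 0 (KO) FPKM, Pf4 at 5.60 and 0.310 FPKM, and Cxcl2 at 4.65 and 0 FPKM. Ccl11 (1.17 and 0.332 FPKM) and Cxcl3 (1.37 and 1.16 FPKM) were lower by less. Ppbp was thus higher in KO in the unnumbered pair while its chromosome 5 neighbours Cxcl5, Pf4, Cxcl3, Cxcl1 and Cxcl2 all had a lower FPKM in KO. H3K27me3 covered 11 of the 15 in WT and 12 in KO, against 34.1% and 31.8% of all genes. In KO a single region, chr9:7325001-7760000, held Mmp12, Mmp1b, Mmp1a, Mmp10, Mmp8, Mmp27, Mmp20 and Mmp7. The 15 genes are thus not separate observations. Most of them were under an FPKM of 1, and no share was computed for such genes, so the count is not read as an excess. H3.3-Flag covered 3 (Ccl8, Ccl1 and Cxcl2) and 1 (Ccl8), against 22.1% and 23.4%. H3K9me3 covered 2 (Mmp12 and Mmp1b) and 6, against 17.4% and 24.8%. The 4 metalloprotease genes Mmp10, Mmp27, Mmp20 and Mmp7 and the chemokine gene Cxcl3 passed the limit for H3K9me3 in KO and not in WT, while Mmp12 did so in WT only (52.7% and 15.3%). H3K9me3 cover of all genes was higher in KO by 50 points for 13.6% and lower for 6.63%. Over the wider list of genes of these clusters, 2 were expressed in the numbered pair and both were 2-fold higher in KO (Ccl5, 1.53, and Cxcl10), against 6.5% of all genes. Cxcl10 passed the minimum there only through KO. Of 8 expressed in the unnumbered pair 6 were 2-fold lower, against 3.83% of all genes. All 6 passed the minimum only through WT, so this count supports nothing either.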

How the data were processed

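RNA values were deposited by the authors as FPKM, 1 value per gene and genotype, with the 3 numbered replicates of a genotype merged. Per the submitters' processing notes, TopHat2 2.0.8b, Cufflinks 2.2.1, Cuffdiff 2.2.1 and Bowtie 1.0.0 were used on mm10, with no roles named, and the region caller is not given in the sources used here. ChIP results were region lists, in which the authors deposited a signal and a score per region (H3.3, H3K9me3 and H3K27me3) or a score alone (H3 and PML). Read totals are not in the files used here, so depth is unknown and no counting interval can be given. FPKM also depends on transcript length and on the total of each library. The summed FPKM, which is not a read total, differed in the numbered pair.

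The software was Python 3.11.15 with pandas 2.3.3, numpy 2.4.6 and, for plots, matplotlib 3.10.9. Repeated names, and the 267 or 271 lines of a table that name several genes, were not used. Differences are KO minus WT of log2(FPKM + 1) for genes with an FPKM of at least 1 in either genotype. Gene bodies came from RefSeq on GRCm38.p6 by symbol, on chromosomes 1 to 19 and X. A gene was covered when at least 50% of its body lay in merged regions. The 2-fold calls and cover were tested on simulated data. No p-value was computed, because there are no replicate values. The members and the lists (NF-kB pathway, AP-1, receptors and partners, other secretory genes, metalloproteases and inhibitors, plasminogen system, cell cycle, cluster neighbours and cell type markers) were chosen with earlier results of these data known. The text names all members, list genes 2-fold apart the same way in both pairs, the 2 highest and 2 lowest of each list and pair, list genes within 250 kb of a member, and the gene nearest in pattern; 1 gene that this rule names is not reported here. Alternatives were a pseudocount of 0.1, equal summed FPKM, centring, other FPKM minimums, windows around body or start, and signal minimums of 1 and 3. The share of covered genes among expressed genes, the centring on short genes and the AP-1 list without Egr1 were added after the data were seen.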

Additional observations from a re-analysis of the deposited data

Results flagged for a closer look

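Cxcl5 differed between KO and WT in opposite directions in the 2 pairs of RNA tables, by 2-fold each time. KO minus WT of log2(FPKM + 1) was 1.44 in the numbered pair (0.0141 FPKM in WT and 1.75 in KO) and -1.23 in the unnumbered pair (40.3 FPKM in WT and 16.6 in KO). The difference between the pairs was not tested, since each table holds 1 value per gene.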

How the results depend on the processing

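No paired analysis was possible because the numbered replicates were deposited as 1 merged value per gene and genotype, and no replicate could be left out for the same reason. In the unnumbered pair all 10 member differences kept their direction and their side of 2-fold with a pseudocount of 0.1, with equal summed FPKM and after centring on the median of all genes. In the numbered pair, with equal summed FPKM, the genes 2-fold higher went from 719 to 6124 and those lower from 1737 to 563, and members higher went from 2 to 4. Ccl7 reversed there from -0.46 to 0.73 and, centred on short genes, to 0.46, and Mmp3, near 0 in both genotypes, from 0.04 to -0.0181 after centring on all genes. Cxcl1, under the minimum FPKM, reached 2.99 with a pseudocount of 0.1. With that pseudocount 1086 genes were higher in the numbered pair, while the unnumbered pair had 347 higher (from 203) and 708 lower (from 448). With a minimum FPKM of 5, the higher genes of the numbered pair were 409 with 0 members, and the lower genes of the unnumbered pair 290. Members covered by H3.3-HA in KO went from 3 to 1 at a signal of at least 3. The cause of these shifts was not tested.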
